A study of Homo sapiens with 6 samples.

Results

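The 10 genes described here encode adhesion and growth factor receptor proteins best known from the nervous system, measured in OVCA433, an established line of high-grade serous ovarian cancer cells. They are the IgLON adhesion proteins NTM, OPCML, LSAMP and NEGR1, the L1-type adhesion proteins L1CAM and NRCAM, the neural cell adhesion molecule NCAM1, the doublecortin-type kinase DCLK1, the GDNF co-receptor GFRA1 and its signalling partner RET. Every probe set whose platform annotation gives 1 of these symbols alone was taken, which gave 36 of 54613 probe sets, and 10 of 19775 named genes. NTM, DCLK1 and GFRA1 were chosen for the size and opposite direction of their change in these arrays, and L1CAM was chosen with its change known, so the values of these 4 genes are a description and carry no test. The other 6 were taken as their relatives and partners. That choice, too, was made with earlier results of these data known, which limits what their p-values and counts can carry.

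Affymetrix Human Genome U133 Plus 2.0 arrays were hybridised with RNA from 3 control and 3 versican samples. Versican is a matrix proteoglycan that carries chondroitin sulfate chains and binds hyaluronan. Both groups grew in RPMI1640 with 10% fetal bovine serum in 60 mm dishes, and both had their medium replaced 24 hours after seeding, the control group with fresh medium alone and the versican group with fresh medium that held versican. RNA was taken 48 hours later. The protocol text also calls the harvested cells transfected, the titles and descriptions do not, and the samples were grouped as titled. For the dose and form of versican, nothing is given in the sources used here. The 3 samples of each group are described as independent, but nothing says that they came from separate cultures or days, so p-values reflect only how far these samples scatter, which can be technical scatter.

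IgLON proteins are small members of the immunoglobulin superfamily, held in the outer membrane by a lipid anchor, which bind one another and themselves on neighbouring neurons. L1CAM and NRCAM cross the membrane and link cell contacts to the ankyrin and actin cytoskeleton, and L1CAM is also made by many carcinomas. GDNF binds GFRA1, and the pair then engages the receptor kinase RET or, in some neurons, NCAM1. OPCML is known as a gene that is often silenced by methylation in epithelial ovarian cancer.

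Genes are named below by chromosome, from RefSeq on GRCh38.p14. NTM and OPCML lie next to each other on chromosome 11, OPCML being the next protein-coding gene after NTM, and NCAM1 is on chromosome 11 as well. LSAMP is on chromosome 3, NEGR1 on 1, NRCAM on 7, DCLK1 on 13, L1CAM on X, and GFRA1 and RET are both on chromosome 10. The 250 bases before the most upstream RefSeq start are shown for the chosen genes NTM and DCLK1, which were higher with versican, beside GFRA1 and LSAMP, which were lower. They are printed 5′ to 3′ on the gene's strand. NTM is at chr11:131370365-131370614 (plus strand). DCLK1 is at chr13:36131940-36132189, LSAMP at chr3:116445488-116445737 and GFRA1 at chr10:116274706-116274955 (minus strand each). Capitals mark matches to the searched motifs.
NTM: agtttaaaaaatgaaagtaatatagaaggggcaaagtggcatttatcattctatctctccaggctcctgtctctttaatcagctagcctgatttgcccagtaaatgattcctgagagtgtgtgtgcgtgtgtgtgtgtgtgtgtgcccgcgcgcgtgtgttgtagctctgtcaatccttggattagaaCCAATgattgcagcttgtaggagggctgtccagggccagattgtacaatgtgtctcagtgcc
DCLK1: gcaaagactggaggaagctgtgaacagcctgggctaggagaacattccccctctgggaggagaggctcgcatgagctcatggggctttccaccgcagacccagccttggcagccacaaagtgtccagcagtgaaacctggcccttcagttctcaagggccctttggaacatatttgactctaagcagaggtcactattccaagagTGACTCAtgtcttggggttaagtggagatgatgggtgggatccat
LSAMP: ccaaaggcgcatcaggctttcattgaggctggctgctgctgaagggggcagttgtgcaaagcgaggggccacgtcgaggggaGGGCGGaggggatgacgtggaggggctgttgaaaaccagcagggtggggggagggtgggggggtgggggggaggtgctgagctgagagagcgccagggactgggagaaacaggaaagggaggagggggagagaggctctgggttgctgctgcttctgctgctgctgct
GFRA1: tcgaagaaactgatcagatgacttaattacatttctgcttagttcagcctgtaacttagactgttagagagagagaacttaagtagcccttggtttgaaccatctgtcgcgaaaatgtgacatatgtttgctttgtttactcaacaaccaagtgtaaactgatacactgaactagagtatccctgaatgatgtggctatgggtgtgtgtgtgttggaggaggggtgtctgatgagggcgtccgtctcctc
The motifs, searched on both strands, were TGANTCA (the AP-1 site), TGACGTCA (the cAMP response element), GGGCGG (the GC box), CCAAT and TATAAA. An AP-1 match and a cAMP element match cannot cover the same letters in full. The DCLK1 stretch holds 1 TGANTCA match, that of LSAMP 1 GGGCGG match and that of NTM 1 CCAAT match. GFRA1 has 0 matches to these letters in this window. Of all 35116 starts in the RefSeq table, 6.6% hold TGANTCA within the same 250 bases, 1.6% TGACGTCA, 42.6% GGGCGG, 32.0% CCAAT and 10.7% TATAAA. The table holds 22 starts for 8 of the 10 genes, among them 5 for NTM, 4 for GFRA1, 3 for DCLK1 and 1 for LSAMP. TGANTCA occurs before 3 of these 22 starts, TGACGTCA before 1, GGGCGG before 9, CCAAT before 5 and TATAAA before 1. A match describes letters only, and the arrays do not show which start was used.

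All signals below are MAS5 values on a linear scale, in which the median probe set of an array stood at 62.8 to 75.8. Changes are differences of log2(signal + 16), versican minus control, and they understate the change of dim probe sets. For the fit of genes, each gene was represented by the probe set with the highest mean, and the 9887 genes in the upper 50% by that mean were tested with limma. Of these, 41.6% were called at an adjusted p of 0.05, 21.0% higher and 20.6% lower, with a median log2 change of 0.01 over all tested genes. Versican and control signals did not overlap for 52.2% of them. On the tested genes, the correlation was 0.993 to 0.995 between arrays of 1 group and 0.969 to 0.972 between a control and a versican array. In a further fit with all 54613 probe sets and no filter, 11.7% were called, 5.75% higher and 5.91% lower, and signals did not overlap for 26.9%. In bulk RNA, a change in the number of cells that make a transcript and a change in the RNA per cell cannot be told apart.

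The IgLON genes moved in opposite directions. NTM and NEGR1 were higher in the versican samples, LSAMP was lower, and OPCML lay at the bottom of the array's range in both groups. Of the 24 probe sets of the 6 relatives, 3 were called higher (all of NEGR1) and 5 lower (all of LSAMP), against 5.75% and 5.91% of all probe sets. Probe sets of 1 gene read the same transcripts and are not replicates. The total of 8 fell to 3 without control replicate 3, to 4 without versican replicate 1, and to 5 without control replicate 2 or without versican replicate 2.

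**Figure D1:**
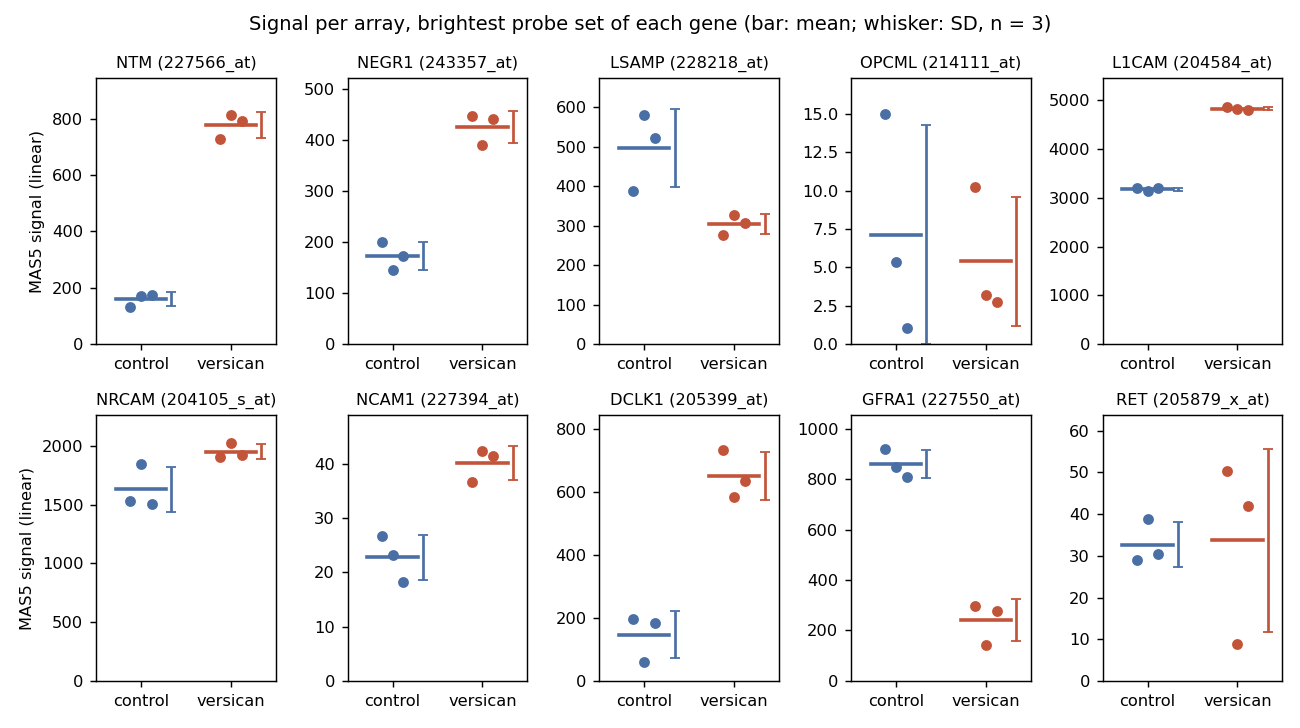
MAS5 signal (linear, each panel with its own axis from 0) on each of the 3 control and 3 versican arrays, for the probe set with the highest mean of each gene. Bars are means and whiskers SD. The groups are apart for NTM, NEGR1, LSAMP, L1CAM, NRCAM, NCAM1, DCLK1 and GFRA1, NCAM1 at signals of only 18.3 to 42.5, and they overlap for OPCML and RET. Groups were apart for 26.9% of all probe sets, and NTM, DCLK1, GFRA1 and L1CAM were chosen with their change known.

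NTM, neurotrimin, was read by 3 probe sets. On 227566_at the control arrays gave 130, 173 and 174 and the versican arrays 726, 812 and 792. All versican values were thus far above all control values, with a mean of 159 ± 25 (SD, n = 3) against 777 ± 45 (SD, n = 3), a log2 difference of 2.19 (SE 0.12). The same direction was seen on 222020_s_at, with 36.5, 81.0 and 33.2 in control and 147, 120 and 137 in versican arrays, a smaller log2 difference of 1.25 (SE 0.29). Control replicate 2 was the highest control on that probe set and still below every versican array. The third, 241934_at, gave 15.3 to 50.7 with overlapping groups and a log2 difference of 0.01 (95% interval -0.79 to 0.81).

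NEGR1, neuronal growth regulator 1, is a further IgLON protein. Its control signals on 243357_at were 200, 145 and 173 and its versican signals 447, 389 and 440. No versican array came near the control range. From a control mean of 173 ± 27 to a versican mean of 425 ± 32 (SD, n = 3 each), NEGR1 rose 2.35-fold (log2 1.23, SE 0.13, limma adjusted p = 5.2e-05). Its control mean lies below 201, the lowest mean of a tested gene, as do those of NTM and DCLK1, so these genes entered the fit through their versican arrays. With no filter, the fit of all probe sets gave NEGR1 an adjusted p of 0.00018 on the same probe set. There, 229461_x_at rose by 1.6 (SE 0.15, adjusted p = 9.9e-05), from control signals of 161, 107 and 162 to versican signals of 457, 499 and 432. This _x_at probe set may also bind other transcripts, and it pointed the same way as the gene-specific ones. 1553194_at, dimmer, rose by 0.98 (SE 0.25, adjusted p = 0.029), from between 35.2 and 40.0 to between 70.8 and 107, and its adjusted p ran from 0.021 to 0.12 over 12 alternatives. 239548_at, at 6.28 to 30.6, did not pass (log2 0.42, SE 0.29, adjusted p = 0.46), although its groups did not overlap.

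LSAMP, the limbic system associated membrane protein, was the IgLON gene that fell. On 228218_at the control arrays gave 389, 581 and 523 and the versican arrays 277, 326 and 308. Every versican value lay under every control value, and the control arrays were the more scattered group. With means of 498 ± 98 and 304 ± 25 (SD, n = 3 each), LSAMP fell 1.59-fold (log2 -0.67, SE 0.14, adjusted p = 0.0041), and its change ran from -0.83 to -0.55 over 15 alternatives, past the threshold in each. It is read by 6 probe sets, and 5 of them fell in the fit of all probe sets. The largest of these falls was on 235111_at, from 270, 287 and 258 to 152, 116 and 156 (log2 -0.88, SE 0.14, adjusted p = 0.0029). The tightest was 229244_at, at 183, 188 and 185 in control and 124, 109 and 119 in versican arrays (log2 -0.59, SE 0.15, adjusted p = 0.025). 235494_at and 214460_at fell by 0.74 and 0.55 on the log2 scale. The sixth, 1570190_at, stayed between 2.42 and 15.8 on all arrays, with overlapping groups. Of these 5, 235111_at alone passed under all 13 alternatives. Without control replicate 3, the other 4 missed the threshold with adjusted p from 0.050 to 0.094, while their changes stayed between -0.62 and -0.50.

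OPCML, opioid binding protein and cell adhesion molecule like, is the fourth IgLON gene and the chromosomal neighbour of NTM. Its 2 probe sets gave 1.05 to 15.0 over the 6 arrays, at percentiles 0.645 and 6.31 of all probe sets by mean level. No difference could be read there: the groups overlapped, and the 95% intervals of the log2 change were -0.66 to 0.49 and -0.41 to 0.31. IGLON5, the remaining family gene, was as dim, at 4.29 ± 0.70 against 5.32 ± 1.87 (control, then versican, SD, n = 3 each).

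**Figure D2:**
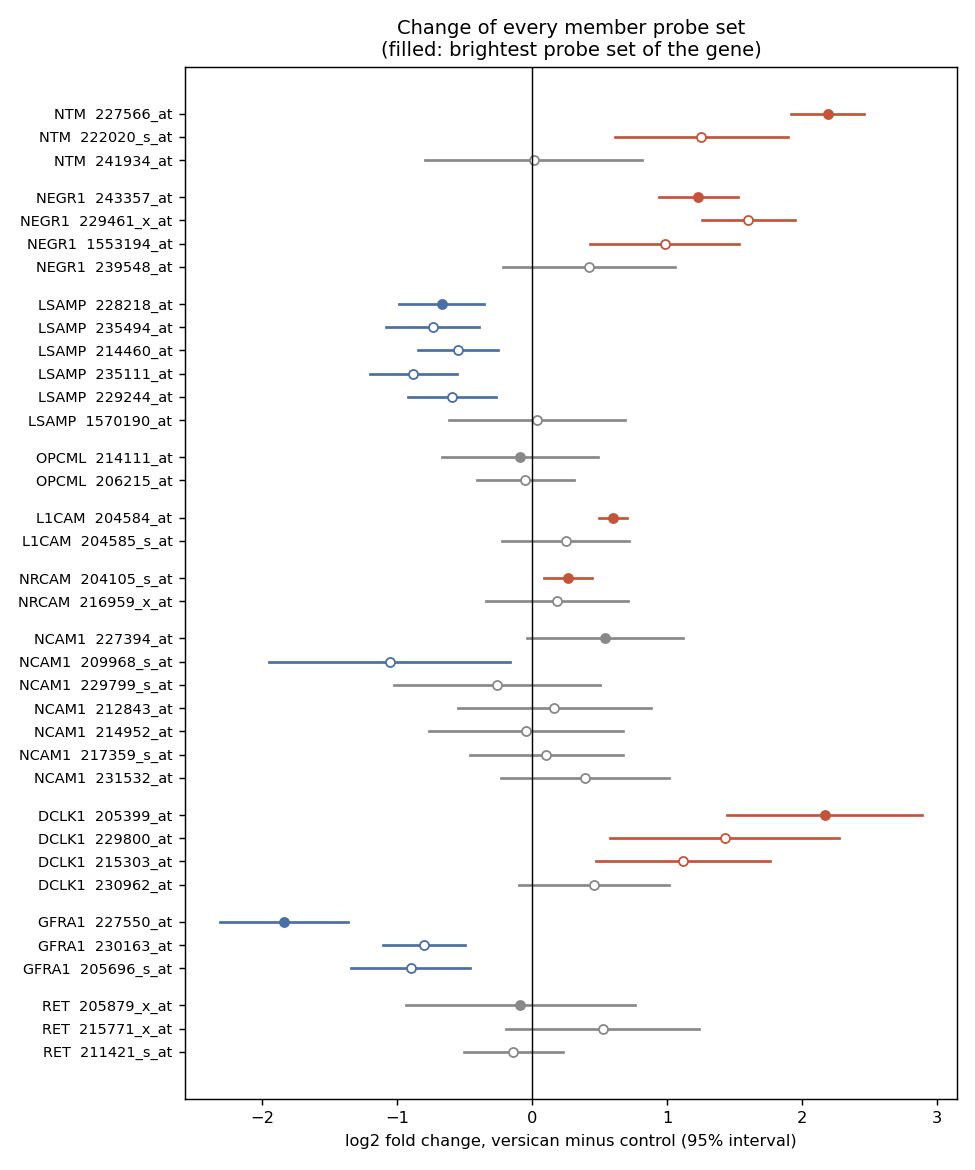
Log2 fold change (versican minus control) of each of the 36 probe sets with its 95% interval from the fit of all probe sets, before any adjustment. Red intervals lie above 0, blue ones below and grey ones span 0, and filled points mark the probe set that stands for the gene. Most intervals of NEGR1 lie to the right of 0 and most of LSAMP to the left. The probe sets of OPCML, RET and all but 1 of NCAM1 span 0. NTM, DCLK1, GFRA1 and L1CAM were chosen with their change known, so the place of their intervals carries no test.

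Among the L1-type genes, L1CAM scattered little between arrays. Its probe set 204584_at gave 3199, 3142 and 3194 in control and 4864, 4810 and 4806 in versican arrays. The groups were apart by far more than the scatter within either, at 3178 ± 31 and 4827 ± 32 (SD, n = 3 each), with a log2 difference of 0.60 (SE 0.05). A second probe set, 204585_s_at, stood at 7.91 to 16.3, so L1CAM was measured here by 1 informative probe set. NRCAM, its relative that gathers sodium channels at nodes of Ranvier, gave 1532, 1849 and 1507 in control and 1901, 2026 and 1924 in versican arrays on 204105_s_at. Control replicate 2 came close to the versican range. With means of 1629 ± 190 and 1950 ± 66 (SD, n = 3 each), NRCAM rose 1.20-fold (log2 0.26, SE 0.08, adjusted p = 0.022), and it did not pass in the fit of all probe sets (adjusted p = 0.064). It also missed without control replicate 1 (0.070), without control replicate 3 (0.077), without versican replicate 2 (0.067), after median centring (0.061) and with the mean of its probe sets (0.12). The second NRCAM probe set, 216959_x_at, gave 80.5 to 153 with overlapping groups. CHL1 and NFASC, the other L1-type genes, were dim and not tested: CHL1 had 23.4 ± 7.6 and 15.8 ± 8.4, and NFASC 17.4 ± 3.0 and 43.6 ± 17.9 (control, then versican, SD, n = 3 each).

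NCAM1, which sticks cells together and can serve as an alternative receptor for GDNF with GFRA1, was dim on all 7 of its probe sets, at 1.20 to 70.1 and percentiles 5.63 to 37.2 of all probe sets by mean level. The limma fit called none of the 12 probe sets of OPCML, NCAM1 and RET, and 1 of them, NCAM1 209968_s_at, had an unadjusted p under 0.05. That probe set gave 17.2, 49.0 and 70.1 in control and 15.1, 19.7 and 2.71 in versican arrays, so the groups overlapped (log2 -1.05, SE 0.40, adjusted p = 0.14). Without control replicate 1 it was called lower (log2 -1.44, adjusted p = 0.041). The opposite direction was seen on 227394_at, with 26.7, 23.2 and 18.3 against 36.6, 42.5 and 41.5 (log2 0.54, SE 0.26, adjusted p = 0.26). NCAM1 probe sets therefore gave no common direction. NCAM2 was as dim, at 12.8 ± 10.1 and 6.84 ± 3.99 (SD, n = 3 each). The enzymes that add polysialic acid to NCAM1 lay below the filter too: ST8SIA2 had 151 ± 16 and 131 ± 17, ST8SIA4 had 111 ± 21 and 139 ± 17, and ST8SIA3 had 23.4 ± 13.4 and 18.2 ± 7.9 (control, then versican, SD, n = 3 each).

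DCLK1 joins a microtubule-binding doublecortin region to a kinase, and it marks tuft cells of the gut as well as migrating neurons. On 205399_at the control arrays gave 196, 60.3 and 186 and the versican arrays 735, 586 and 636. Control replicate 2 was well under the other controls, and all versican values were far above all controls. The means were 147 ± 75 and 652 ± 76 (SD, n = 3 each), a log2 difference of 2.17 (SE 0.32). Leaving out that low control gave 1.69, the smallest difference among 14 alternatives. The 3 further probe sets were dim, with control means of 13.9 to 20.2. None overlapped between groups, which held for 26.9% of all probe sets. 229800_at gave 24.7, 33.1 and 2.86 against 60.2, 69.9 and 95.8 (log2 1.43, SE 0.38), 215303_at gave 14.5 to 25.6 against 48.6 to 82.3 (log2 1.12, SE 0.29), and 230962_at gave 12.1 to 17.0 against 19.3 to 28.7 (log2 0.46, SE 0.25). All 4 probe sets thus had the same sign, but they read 1 gene that was chosen for its change, so this is a description. The related DCX, DCLK2 and DCLK3 were below the filter. DCX had 23.0 ± 7.8 and 11.2 ± 8.7, DCLK2 27.2 ± 8.3 and 21.0 ± 7.3, and DCLK3 19.8 ± 3.7 and 22.3 ± 10.5 (control, then versican, SD, n = 3 each).

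GFRA1, the lipid-anchored co-receptor that binds GDNF, was the member furthest lower with versican. Its signals on 227550_at were 919, 848 and 810 in control and 297, 144 and 278 in versican arrays. Versican replicate 2 was the lowest, and no versican array reached the control range. Means were 859 ± 56 and 240 ± 83 (SD, n = 3 each), a log2 difference of -1.83 (SE 0.21). Both further probe sets were lower as well, by less. 230163_at went from 337, 317 and 358 to 171, 228 and 166 (log2 -0.80, SE 0.14), and 205696_s_at from 198, 200 and 156 to 103, 105 and 69.3 (log2 -0.90, SE 0.20). Versican replicate 2 was the lowest versican array on 227550_at and the highest on both others.

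RET, the receptor kinase through which GFRA1 signals, was at or under 50.4 on every array and probe set. 205879_x_at gave 29.0, 38.8 and 30.4 in control and 50.4, 8.89 and 41.8 in versican arrays. The versican arrays lay on both sides of the controls (log2 -0.09, 95% interval -0.93 to 0.76, adjusted p = 0.94), an interval too wide to show whether RET changed. The other RET probe sets gave 2.95 to 7.71 against 5.53 to 35.3, and 2.79 to 4.88 against 1.46 to 3.03. Of the further ligands and co-receptors, GDNF and GFRAL were not analysed here. ARTN, the ligand artemin, was the only one above the filter and did not pass (254 ± 30 and 209 ± 25, SD, n = 3 each, log2 -0.26, SE 0.14, adjusted p = 0.15). The ligands NRTN and PSPN had 20.8 ± 15.6 and 25.1 ± 14.3, and 92.0 ± 40.4 and 45.7 ± 31.8 (control, then versican, SD, n = 3 each). The co-receptor genes GFRA2, GFRA3 and GFRA4 were dim and not tested. GFRA2 had 30.2 ± 31.4 and 14.2 ± 4.3, and GFRA4 5.97 ± 2.69 and 7.76 ± 4.67, with overlapping groups (control, then versican, SD, n = 3 each). GFRA3 had 16.1 ± 9.9 and 34.5 ± 2.3 (log2 0.71), with groups apart and versican higher, opposite to GFRA1.

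**Figure D3:**
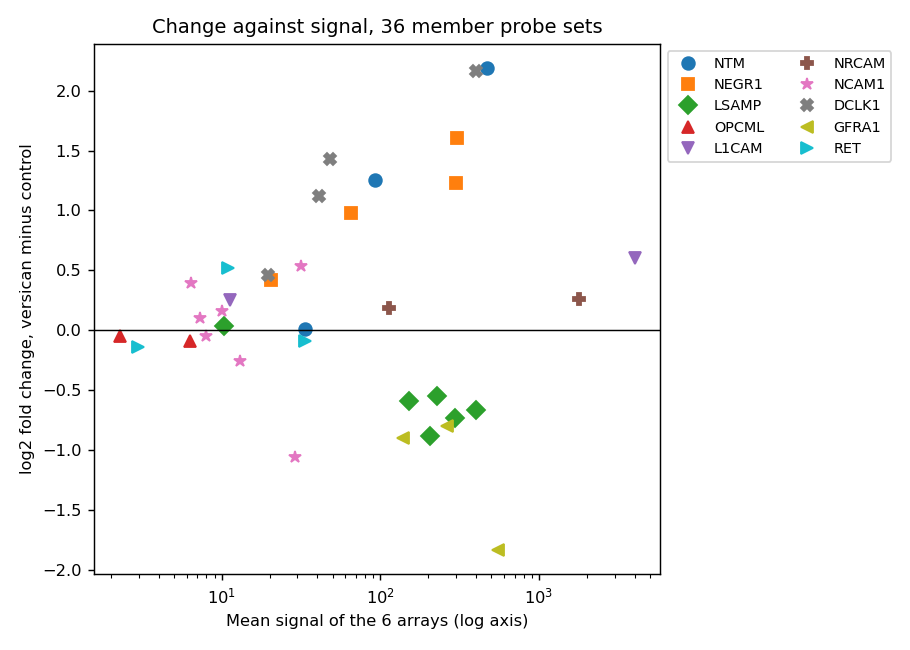
Log2 fold change of each of the 36 probe sets against its mean signal over the 6 arrays (log axis). The OPCML, RET and NCAM1 probe sets all lie left of a mean signal of 35, and the LSAMP, GFRA1, NEGR1, NTM and DCLK1 probe sets with the largest changes lie right of it, on opposite sides of 0.

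Genes that act with these members were read from 9 lists of family members, partners, cleavage enzymes, adaptors and other adhesion proteins of the same superfamily. The lists, like the members, were chosen with earlier results of these data known. Of their 90 genes other than the members, 84 were measured and 46 tested. 7 rose and 11 fell, 39.1% in all, close to the 41.6% of all tested genes, with a median log2 change of -0.06 against 0.01. The partners as a whole therefore did not stand out by count.

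Of 14 tested adaptors of RET, 1 rose and 4 fell, with a median of -0.12. CBLC, a ubiquitin ligase that turns down receptor kinases, went from 664, 778 and 914 to 477, 483 and 510 (log2 -0.65, SE 0.11, adjusted p = 0.0011). SHC3, a neuronal member of the Shc adaptor family, went from 761, 519 and 638 to 395, 346 and 443 (log2 -0.66, SE 0.14, adjusted p = 0.0038). SH2B1, an adaptor of several receptor kinases, fell by 0.36 on the log2 scale (SE 0.10, adjusted p = 0.013). Second probe sets of CBLC and SH2B1 pointed the other way without a call (log2 0.18 and 0.06), and 1 of 2 further SHC3 probe sets was called lower. DOK4 (log2 -0.48) and PTPN11 (log2 0.15), named after their values were seen, made up the count. GRB2 and SHC1, general adaptors named after their values were seen, missed the threshold at log2 -0.06 (adjusted p = 0.59) and -0.02 (adjusted p = 0.83), but SHC1's second probe set was called lower (log2 -0.42).

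Among 15 tested partners of L1CAM and NCAM1, 3 rose and 3 fell, with a median of 0.09. NRP1, neuropilin 1, which forms a semaphorin receptor with L1CAM, went from 419, 440 and 465 to 849, 868 and 980. NRP1 rose 2.00-fold (log2 1.0, SE 0.09, adjusted p = 1.1e-05), while none of its 3 other probe sets was called (log2 -0.18 to 0.34). FGFR2, of the fibroblast growth factor receptors that neural adhesion proteins engage, went from 3944, 3952 and 3962 to 2102, 1950 and 2030. FGFR2 fell 1.94-fold (log2 -0.96, SE 0.05, adjusted p = 4.7e-07), and 3 of its 10 other probe sets were called lower and none higher (log2 -1.72 to 0.36). RANBP9, a scaffold that binds the L1CAM tail, fell by 0.28 (SE 0.05, adjusted p = 0.0020), and none of its 3 other probe sets was called (log2 -0.34 to -0.04). The ERM proteins that tie L1CAM to actin went both ways: EZR, ezrin, rose by 0.18 and RDX, radixin, fell by 0.24 (adjusted p = 0.0094 and 0.0034). DPYSL2 rose by 0.20, and these last 3 were named after their values were seen. ANK3, the ankyrin that holds L1-type proteins in place, was also named after its value was seen and did not pass (log2 -0.18, adjusted p = 0.084).

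Of 7 tested enzymes that cut L1CAM, ADAM10 and ADAM17 fell and none rose. ADAM10, the main L1CAM sheddase, went from 14094, 15118 and 14456 to 12832, 10944 and 12950 (log2 -0.25, SE 0.07, adjusted p = 0.015), and both of its other probe sets were called lower. ADAM17 fell by 0.16 (SE 0.05, adjusted p = 0.033), with neither of 2 further probe sets called. APH1B, a gamma-secretase subunit, did not pass (log2 -0.13, SE 0.11, adjusted p = 0.35).

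Of 9 tested adhesion proteins of the wider immunoglobulin superfamily, 3 rose and 2 fell. BCAM, the basal cell adhesion molecule and laminin receptor, went from 839, 606 and 649 to 349, 338 and 336. BCAM fell 1.98-fold (log2 -0.99, SE 0.12, adjusted p = 0.00011), and its second probe set fell by 0.97. MCAM, melanoma cell adhesion molecule, rose by 0.46 (SE 0.06, adjusted p = 0.00011), with a second probe set at 0.03. CADM1, a synaptic and epithelial adhesion protein, rose by 0.38 (SE 0.08, adjusted p = 0.0031). Of its 5 further probe sets, 2 were called the same way and none the other way, with log2 changes from -0.57 to 0.78. ALCAM rose by 0.19 and NECTIN4 fell by 0.37, both named after their values were seen.

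**Figure D4:**
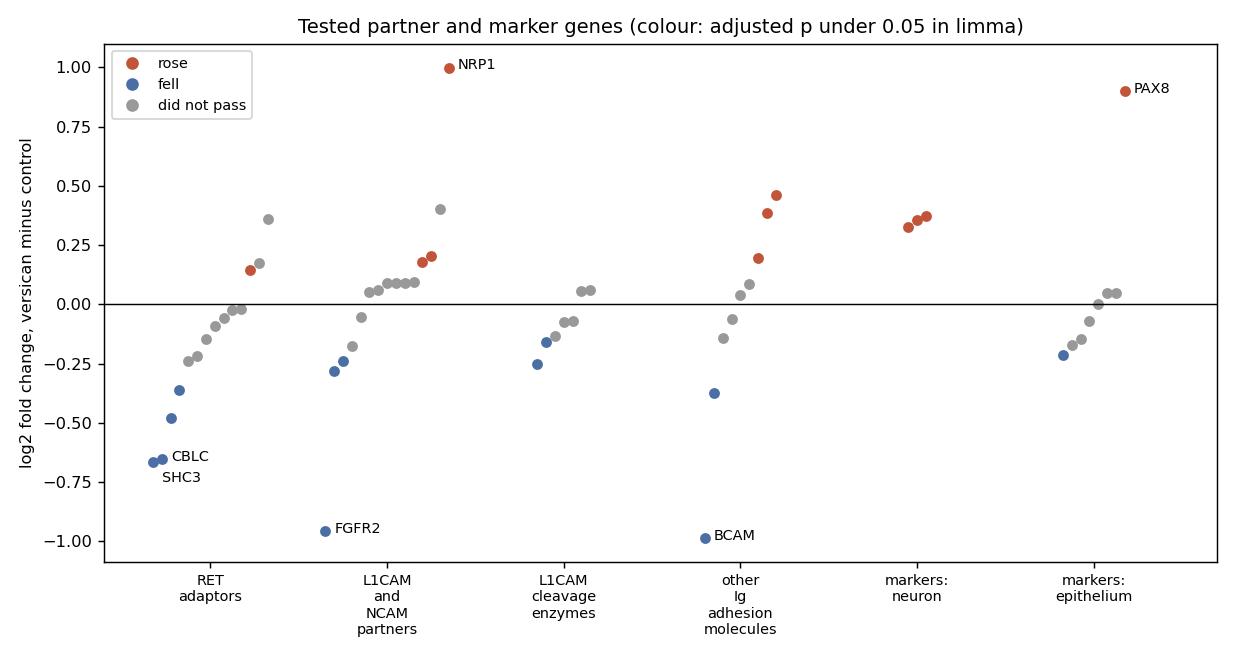
Log2 fold change (versican minus control) of tested partner and marker genes, 1 point per gene, ordered within each list and coloured by the limma call. Points lie on both sides of 0 in the lists of RET adaptors, L1CAM and NCAM partners and other Ig adhesion molecules, with NRP1 at 1.0, FGFR2 at -0.96 and BCAM at -0.99.

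Epithelial markers were abundant in both groups. The 8 epithelial markers were all tested, summed to 113090 to 131120 in control and 117860 to 120190 in versican arrays, and of them PAX8 rose (log2 0.90) and KRT19 fell (log2 -0.21). Of 12 neuron markers measured, 3 were tested and all 3 rose (21.0% of all tested genes did), TUBB3 by 0.37, MAP2 by 0.36 and SYT1 by 0.33 on the log2 scale. Their summed signal was 9262.5 to 9596.6 in control and 11934 to 12177 in versican arrays, most of it TUBB3, a tubulin that carcinoma cells often make, and MAP2. STMN2, SYP and ELAVL3 were among the dimmer ones, with means of 4.33 to 18.0 in either group, and none of the 12 was listed at 0. SYP and ELAVL3 had groups apart, versican higher (log2 0.10 and 0.24), and STMN2 overlapped (log2 -0.03), none of them tested. Other neuron markers below the filter, not tested, differed in both directions: RBFOX3 went from 57.7 ± 7.2 to 17.3 ± 12.8 (log2 -1.22) and ELAVL4 from 50.4 ± 12.9 to 25.7 ± 8.4 (log2 -0.67), both with groups apart, and CHGA from 9.59 ± 8.04 to 30.7 ± 7.3 (log2 0.90, SD, n = 3 each), also apart. GAP43 had log2 -0.60, NEFL 0.51 and SNAP25 0.35, with overlapping groups. SNAP25 was less dim, at 73.5 ± 21.2 and 96.5 ± 12.7 (control, then versican, SD, n = 3 each). The part of these markers in the members' changes was not tested. Glial markers summed to 2527 to 2738 in control and 2431 to 2558 in versican arrays, nearly all of it MBP. S100B and SOX10 had means of 11.6 to 25.7 and overlapping groups. GFAP went from 21.8 ± 11.3 to 7.85 ± 2.45 (SD, n = 3 each, log2 -0.63, groups apart, below the filter and not tested). Fibroblast markers summed to 5070 to 5216.5 and 2611 to 3091, nearly all of it COL1A1, which fell by 0.89 while its 4 other probe sets ran from -0.86 to 1.24, with DCN and COL1A2 at means of 26.7 to 40.0. LUM went from 96.7 ± 32.2 to 37.5 ± 8.8 (SD, n = 3 each, log2 -1.04, groups apart, below the filter and not tested), and COL3A1 and PDGFRB overlapped (log2 -0.17 and -0.05). Leukocyte markers summed to 82.9 to 116 and 78.5 to 118, and endothelial markers to 206 to 358 and 191 to 305.

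The genes whose 6 values lay closest to those of a chosen member were found by the root mean square distance of log2 values centred on the control mean, over the 6 arrays. Closest to NTM were RGCC, PRSS2 and TMEM200A, at distances of 0.23, 0.24 and 0.27. Closest to DCLK1 were RGCC, TMEM200A and TMEM158, at 0.40, 0.48 and 0.52. The distance follows the size of the change, so genes with changes as large as those the members were chosen for come out nearest. Closest to GFRA1 were TMEM178A, TMEM130 and FGFR3, at 0.19, 0.22 and 0.25, with FGFR3 at a log2 difference of -1.73. L1CAM had much nearer neighbours, MRPL1, RNASEH2C and RPP30, at 0.02, 0.03 and 0.03.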

How the data were processed

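The deposited file is 1 table of intensity values from the authors, linear signals per probe set. The submitters' processing notes name MAS5, and no version or target is given in the sources used here. Labelled cRNA was made from 100 ng of total RNA, per the labels' protocols. On every array the deposited values had a 2% trimmed mean of 500.1, and no further normalization was applied. Platform annotation gave 41097 probe sets 1 symbol, 1801 several and 11721 non-control probe sets none. For 41043 of them the symbol was brought up to date by gene identifier.

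In R 4.3.3, limma 3.58.1 was run on log2(signal + 16) (lmFit with group as the only term, eBayes with an intensity trend, two-sided, Benjamini-Hochberg at 0.05), over 9887 genes and, separately, over all 54613 non-control probe sets without a filter. The fit was tested on simulated data. The members and lists were chosen with earlier results of these data known. Named genes were the 10 members, all measured genes of their 5 families, the 3 tested genes with the smallest p of each list and the 3 genes nearest to each chosen member. Alternatives were pseudocounts of 1 and 64, other filters (none, the upper 25% of genes, the upper 50% of probe sets), quantile and median scaling, no trend, the replicate number as a block, averaging all probe sets of a gene, dropping the _x_at and _s_at ones, and leaving out each array. Promoter sequences and chromosomes came from RefSeq tables on GRCh38.p14. The number of arrays limits the precision.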

Additional observations from a re-analysis of the deposited data

How the results depend on the processing

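In the fit of genes, NEGR1 and LSAMP kept their direction and passed the threshold under all 15 alternatives that tested them. NRCAM missed it there in 5 of 15. NEGR1 entered the fit of genes through its versican arrays, so its passes under a filter give no support. The gene fits that left out an array kept the genes selected on all 6 arrays. In the fit of all probe sets, 243357_at of NEGR1 passed under all 13 alternatives, while 228218_at of LSAMP missed the threshold in 5 of 13. For NTM, DCLK1, GFRA1 and L1CAM, chosen on these arrays, stability of a call says nothing, and only sizes are given. Averaging each gene over its probe sets, the log2 difference of NTM moved from 2.19 to 1.15 and that of GFRA1 from -1.83 to -1.18, and DCLK1 lay below the filter. None of the 17 called member probe sets changed sign under an alternative, and 7 of the 19 that were not called did. A call needs a change that is large against its SE, and 9 of the 17 belong to the 4 chosen genes. This contrast is therefore no support for the calls. Genes called fell from 4117 to 2618 with median centring, out of 9887 tested in both. Among the upper 25% of genes 2421 were called, but fewer genes were tested there, so this count is not a like measure. Partner genes called fell from 18 to 11 and 10 under the same settings, and member genes called fell to 2 among the upper 25%, where 5 members were no longer tested. Member probe sets called fell from 17 to 11 without an intensity trend and to between 9 and 13 when an array was left out, lowest without control replicate 3 (9) and versican replicate 1 (10). This count includes 9 probe sets of the 4 chosen genes, so its distance from the 11.7% of all probe sets supports nothing. Those of the 6 relatives, a count added after the data were seen, fell from 8 to 5 with median centring and to 5 without an intensity trend, and lay between 3 and 7 when an array was left out. Beyond the smaller number of genes or arrays, the cause was not tested.

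Deviations of same-numbered arrays from their group means correlated at 0.12, -0.02 and -0.09, and the replicate numbers were therefore not used as pairs. With the replicate number as a block, 3973 of 9887 genes, 18 of 46 partner genes and 8 of the relatives' 24 probe sets were called. Those 8 were 4 higher and 4 lower, not the same ones as in the main fit. In limma with the block, 204105_s_at of NRCAM was gained (adjusted p = 0.040) and 229244_at of LSAMP was lost (adjusted p = 0.058). The share of all probe sets called with the block is not given here, and it was 11.7% without a block. With the block, all 7 tested member genes and 16 of 36 member probe sets were called as well, but these 2 counts include the chosen genes and support nothing. MAS5 values under about the array median are noisy, which limits what can be said of OPCML, NCAM1 and RET, and of the dim probe sets of the other members.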
